A study of Mus musculus with 6 samples.

Results

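The nuclear genes for oxidative phosphorylation (OXPHOS) are described here by where accessible chromatin lay at their starts. They were taken by name, as every nuclear protein-coding gene of the GENCODE vM1 annotation whose symbol begins with Nduf, Sdh followed by a to d, Uqcr, Cox4 to Cox8, or Atp5. This gave 94 gene entries of 22367 nuclear protein-coding genes. They carry 93 symbols, since Ndufb8 is annotated as 2 genes. The assay was ATAC-Seq, in which a transposase cuts open DNA and tags it with adapters, and the cells were Beko, a line of mouse T-cell progenitors with active Notch signaling. The samples were 3 libraries of cells given DAPT, an inhibitor of γ-secretase (GSI), and 3 of cells given the solvent DMSO, in each case for 24 h. The labels give DAPT at 10 mg/ml. The study's methods name µg/ml in place of that unit. All libraries come from this 1 cell line, and no primary tissue was used. The data are 1 list of 32527 accessible intervals (peaks) merged over all 6 libraries, with the start and end of each peak in mm9 and no height. There is thus no value per library, no replicate error and no depth behind any count below, and GSI against DMSO was not analysed here. A gene without a peak is one for which this list holds no interval, and its chromatin is not thereby shown to be closed. The libraries are bulk, so accessibility in all cells and in some of them cannot be told apart.

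OXPHOS is carried out by large assemblies in the inner mitochondrial membrane. Complex I (NADH dehydrogenase) and complex II (succinate dehydrogenase) feed electrons from metabolites into the chain, complex III (the cytochrome bc1 complex) and complex IV (cytochrome c oxidase) pass them on to oxygen, and complex V (ATP synthase) uses the resulting proton gradient to make ATP. Most subunits are used in every tissue, whereas some subunits of complex IV exist in additional forms that replace the common form in heart and skeletal muscle, lung, testis or low oxygen. The promoters of many of these genes are known to hold sites for NRF1, for ETS factors such as GABPA, and for YY1.

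The sequences before the starts are shown for the pairs whose tissue-restricted form is that of heart and skeletal muscle. Whether these sequences bear on accessibility or on the use of either form was not tested. For each gene the 250 bases upstream of the start of its first-numbered coding transcript are printed 5′ to 3′, read from the mm9 assembly. Capitals mark the words searched below for NRF1, ETS factors, YY1, SP factors, NFY, ERR, MEF2 or a TATA box, on either strand. Cox6a1 at chr5:115798991-115799240 (minus strand) is the common form of subunit 6A and Cox6a2 at chr7:135349881-135350130 (minus strand) its form in heart and skeletal muscle. Cox8a at chr19:7292107-7292356 (minus strand) and Cox8b at chr7:148086346-148086595 (minus strand) are the same kind of pair for subunit 8. Cox7a2 at chr9:79607661-79607910 (minus strand) is common and Cox7a1 at chr7:30968940-30969189 (plus strand) is used in heart and skeletal muscle. The 250 bases held 22 CG dinucleotides in Cox6a1 and 1 in Cox6a2, 11 in Cox8a and 1 in Cox8b, and 14 in Cox7a2 and 4 in Cox7a1.
Cox6a1: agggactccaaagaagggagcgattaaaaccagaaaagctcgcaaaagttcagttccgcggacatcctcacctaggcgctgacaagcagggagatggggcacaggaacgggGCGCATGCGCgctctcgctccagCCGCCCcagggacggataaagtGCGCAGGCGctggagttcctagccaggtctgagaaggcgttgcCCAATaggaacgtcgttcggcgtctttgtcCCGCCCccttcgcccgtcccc
Cox6a2: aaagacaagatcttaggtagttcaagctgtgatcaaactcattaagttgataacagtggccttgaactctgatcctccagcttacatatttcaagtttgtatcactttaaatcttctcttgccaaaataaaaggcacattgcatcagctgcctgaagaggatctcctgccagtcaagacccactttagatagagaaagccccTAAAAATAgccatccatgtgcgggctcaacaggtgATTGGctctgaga
Cox8a: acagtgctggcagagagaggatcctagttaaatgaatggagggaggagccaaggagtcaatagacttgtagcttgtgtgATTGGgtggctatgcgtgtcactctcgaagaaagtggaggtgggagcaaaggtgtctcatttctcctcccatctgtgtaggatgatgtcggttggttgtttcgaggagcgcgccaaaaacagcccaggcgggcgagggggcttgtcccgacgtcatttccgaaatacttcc
Cox8b: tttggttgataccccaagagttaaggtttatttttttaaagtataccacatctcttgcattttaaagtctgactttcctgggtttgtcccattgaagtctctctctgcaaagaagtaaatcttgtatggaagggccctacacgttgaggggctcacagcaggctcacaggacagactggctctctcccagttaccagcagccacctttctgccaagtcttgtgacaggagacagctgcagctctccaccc
Cox7a2: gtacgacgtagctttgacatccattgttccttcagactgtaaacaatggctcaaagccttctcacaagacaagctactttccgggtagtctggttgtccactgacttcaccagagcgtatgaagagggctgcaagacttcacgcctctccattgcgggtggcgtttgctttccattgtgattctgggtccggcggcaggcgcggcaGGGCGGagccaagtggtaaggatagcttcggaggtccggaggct
Cox7a1: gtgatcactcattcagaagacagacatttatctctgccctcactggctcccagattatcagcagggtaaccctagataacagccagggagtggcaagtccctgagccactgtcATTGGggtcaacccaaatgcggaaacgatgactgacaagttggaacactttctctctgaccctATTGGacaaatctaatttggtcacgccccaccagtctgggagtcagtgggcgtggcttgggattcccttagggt

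A further 3 are shown because they belong to genes used in every tissue and yet had no peak in the list. They are Ndufb5 at chr3:32635662-32635911 (plus strand) and Ndufs8 at chr19:3912718-3912967 (minus strand), of complex I, and Atp5f1 at chr3:105763018-105763267 (minus strand), of complex V. These 250 bases held 15 CG dinucleotides in Ndufb5, 8 in Ndufs8 and 2 in Atp5f1.
Ndufb5: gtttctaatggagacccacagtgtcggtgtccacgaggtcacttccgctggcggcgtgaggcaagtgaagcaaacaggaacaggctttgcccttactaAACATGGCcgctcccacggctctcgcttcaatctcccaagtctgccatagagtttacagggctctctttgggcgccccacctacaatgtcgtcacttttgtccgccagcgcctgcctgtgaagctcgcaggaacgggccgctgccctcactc
Ndufs8: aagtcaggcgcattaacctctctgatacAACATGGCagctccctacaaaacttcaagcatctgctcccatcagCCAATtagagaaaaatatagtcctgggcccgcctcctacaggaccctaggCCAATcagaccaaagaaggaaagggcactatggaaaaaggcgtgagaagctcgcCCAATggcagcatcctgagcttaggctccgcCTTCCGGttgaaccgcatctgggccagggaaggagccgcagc
Atp5f1: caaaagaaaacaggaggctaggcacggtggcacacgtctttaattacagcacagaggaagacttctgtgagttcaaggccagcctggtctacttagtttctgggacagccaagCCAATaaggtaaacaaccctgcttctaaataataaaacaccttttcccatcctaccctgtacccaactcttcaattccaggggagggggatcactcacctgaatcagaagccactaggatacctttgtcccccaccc

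Most OXPHOS genes had accessible chromatin at their start. For 79 of the 94 entries a peak was found within 1 kb of a start (84.0%, 95% Wilson interval 75.3 to 90.1%, which covers counting error only). Over all nuclear protein-coding genes this held for 10502 of 22367, or 47.0%. The start itself was inside a peak for 78 of 94 (83.0%), against 44.0% of all. The share among OXPHOS genes was thus higher than that of all coding genes by either count. It was near that of other genes needed in every cell, 74 of 84 cytosolic ribosomal protein genes (88.1%) and 72 of 77 mitochondrial ribosomal protein genes (93.5%). None of these shares was tested, because genes are not replicates and the list has no libraries to compare. Among the 75 entries that encode subunits of the complexes without the tissue-restricted forms, 67 had a peak (89.3%), and among the other 19 entries 12 did (63.2%).

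**Figure D1:**
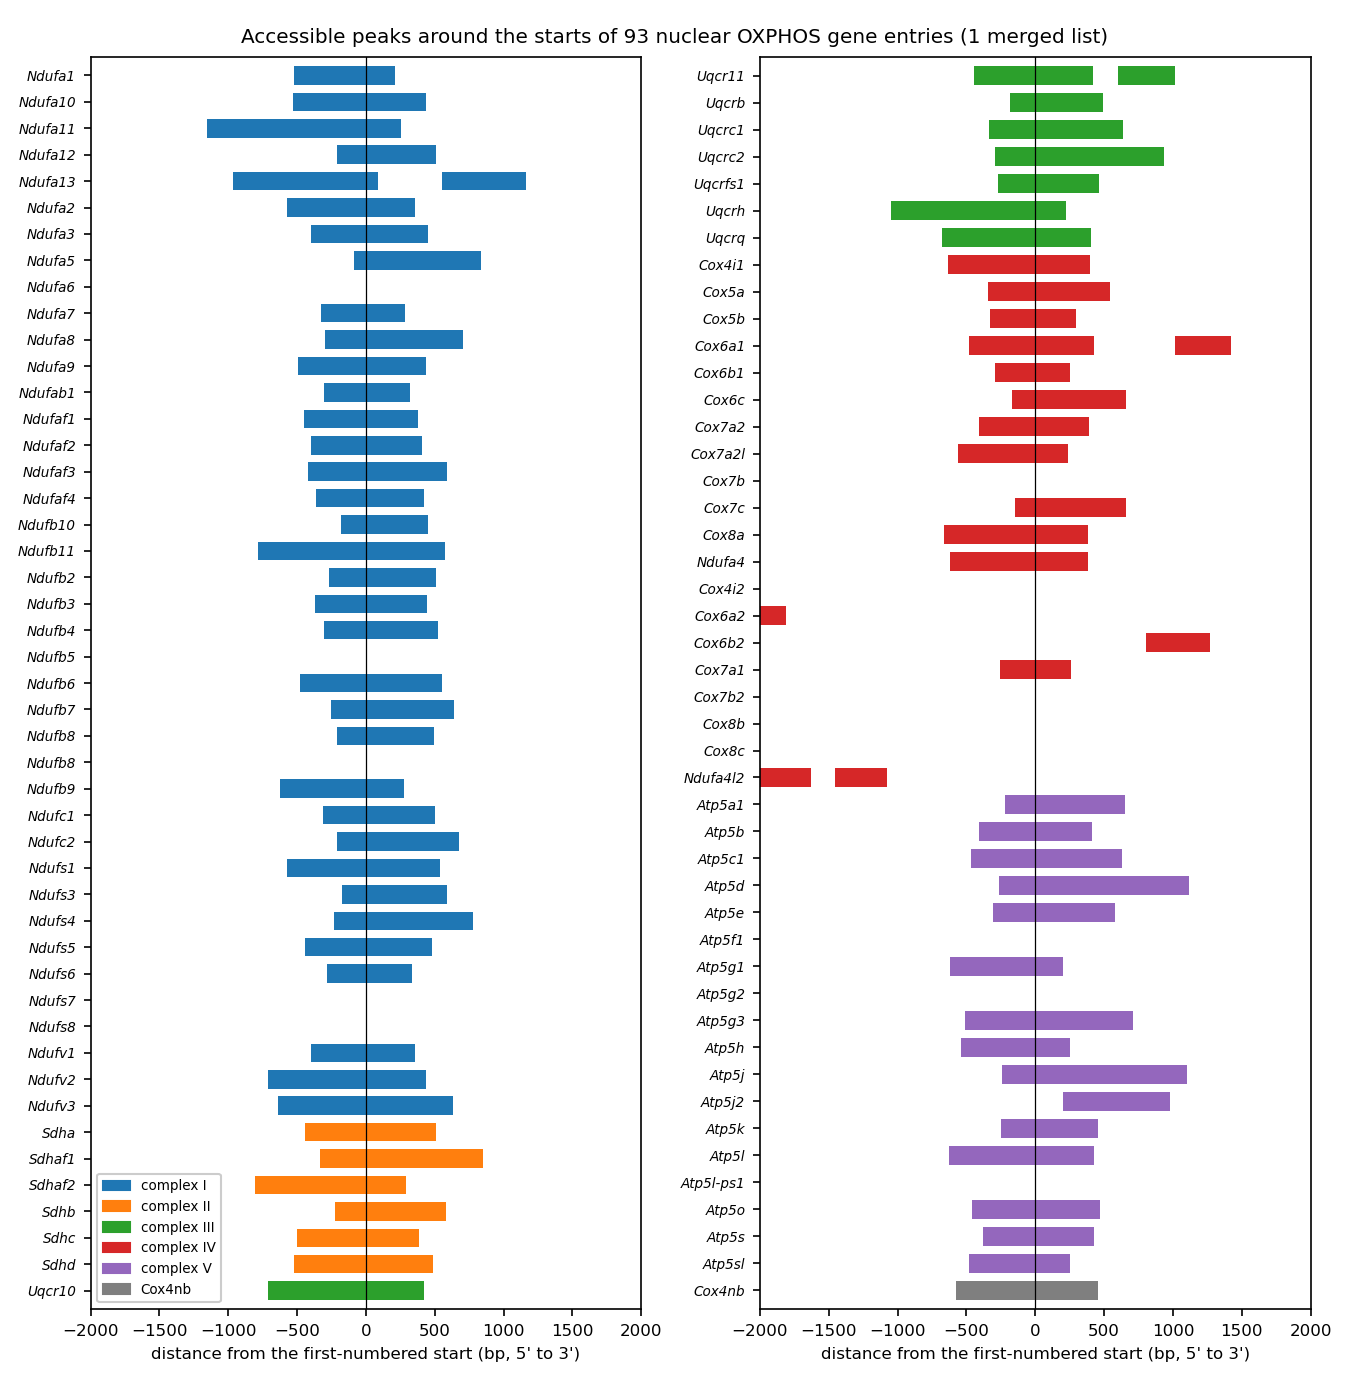
Each row is a gene entry and each bar a peak, drawn by its distance in bp from the first-numbered start (line at 0), with colours for the complexes. In 76 of the 93 rows a bar crosses the line, and in complexes II and III none of the 14 rows is without such a bar.

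Complex I had a peak at 36 of 41 entries (87.8%). The core subunits, which hold the sites of electron transfer, had one at 5 of 7. Among them, Ndufv1, which carries the NADH site, had a peak of 757 bp, Ndufv2 of 1148 bp, Ndufs1 of 1112 bp and Ndufs3 of 770 bp. The core subunits without a peak were Ndufs7 and Ndufs8, which hold iron-sulfur clusters late in the electron path. Accessory subunits, which surround the core, had a peak at 27 of 30 entries, the exceptions being Ndufa6, Ndufb5 and the second Ndufb8 entry. All 4 assembly factors, Ndufaf1 to Ndufaf4, had a peak, of 783 to 1017 bp.

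Complexes II and III had a peak at every gene. In complex II the 4 subunits of succinate dehydrogenase had peaks of 952 bp (Sdha, the flavoprotein), 805 bp (Sdhb, the iron-sulfur subunit), 891 bp (Sdhc) and 1008 bp (Sdhd), the last pair being the membrane anchors. The assembly factors Sdhaf1 and Sdhaf2 had wider ones, of 1190 and 1096 bp. In complex III all 8 genes had a peak with the start inside it. The widths ran from 680 bp at Uqcrb and 738 bp at Uqcrfs1, the Rieske iron-sulfur protein, to 1229 bp at Uqcrc2, a core protein, and 1271 bp at Uqcrh, the hinge protein. With 6 and 8 genes, the Wilson intervals of these full shares begin at 61.0 and 67.6%, so they reach below the shares of complexes I and V.

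Complex IV had the lowest share, 13 of 20 (65.0%), and 6 of its 7 entries without a peak are tissue-restricted forms. Of its 11 subunits used in most tissues, which include Ndufa4, a gene named for complex I, 10 had a peak (90.9%), and the exception was Cox7b on chromosome X. Cox7a2l, which helps complexes join into supercomplexes, had a peak of 794 bp. Of the 8 tissue-restricted or induced forms, 2 had a peak (25.0%, Wilson interval 7.15 to 59.1%). All 8 have CpG-poor starts, as defined below, and 23.2% of all coding genes with such starts had a peak. Their share was thus near that of their class of base composition. Cox4nb, which the naming rule takes in although it encodes no OXPHOS subunit, shared its peak of 1028 bp with its neighbour Cox4i1.

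Complex V had a peak at 15 of 18 entries (83.3%). All 5 genes of the catalytic F1 part had one, Atp5a1 (877 bp) and Atp5b (823 bp) for its large subunits and Atp5c1 (1096 bp), Atp5d (1382 bp) and Atp5e (883 bp) for the central stalk. The membrane part and outer stalk had one at 8 of 10, the exceptions being Atp5f1, subunit b of the outer stalk, and Atp5g2. The related genes Atp5s and Atp5sl had peaks of 808 and 737 bp. Atp5l-ps1, named as a pseudogene and annotated as coding, had none. The 3 Atp5g genes encode the same mature ring subunit c, and the list held a peak of 826 bp at Atp5g1 and of 1222 bp at Atp5g3, whereas at Atp5g2 the nearest peak was 5165 bp away. Across the complexes, the intervals of complex I (74.5 to 94.7%), complex IV (43.3 to 81.9%) and complex V (60.8 to 94.2%) overlap.

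**Figure D2:**
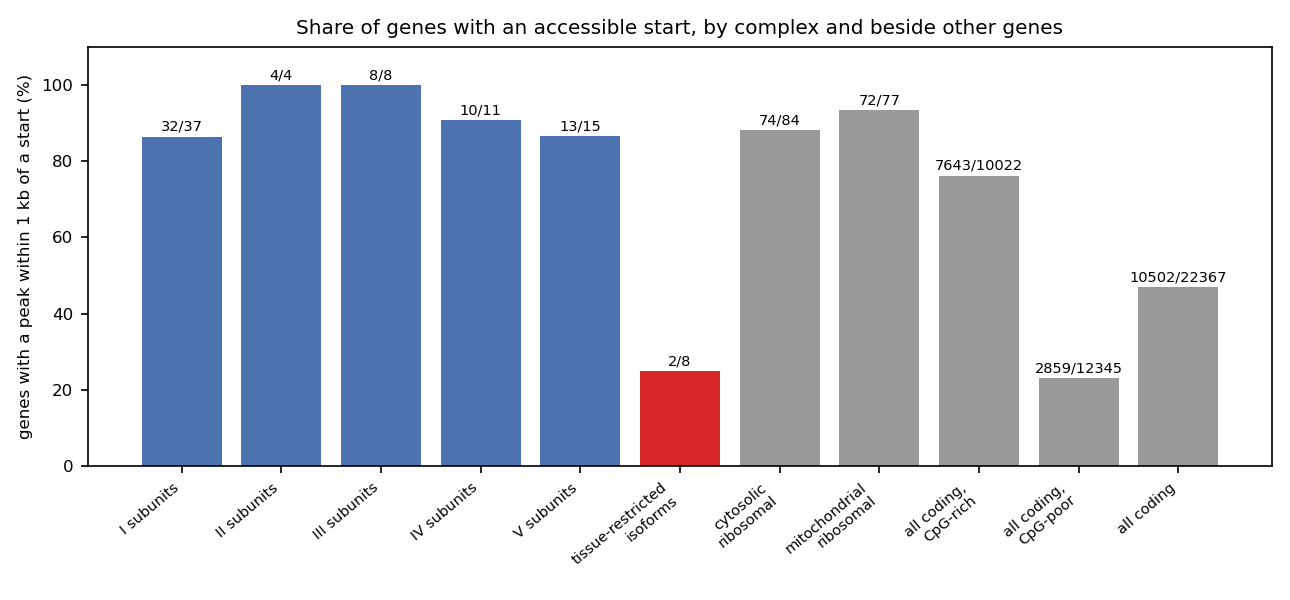
Bars give the percentage of genes with a peak within 1 kb of a start, with the numbers of genes above them, for the subunits of each complex without the tissue-restricted forms, for the 8 tissue-restricted forms (red), and for comparison genes (grey). The subunit bars stand between 86.5 and 100%, the tissue-restricted bar at 25.0%, all coding genes at 47.0% and CpG-poor coding genes at 23.2%.

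The complex IV pairs were then compared gene by gene. Cox4i1 had a peak of 1028 bp over its start, and for Cox4i2, the form of lung and low oxygen, the nearest peak was 11426 bp away. Cox6a1 had a peak of 906 bp, and for Cox6a2 of heart and skeletal muscle the nearest was 1814 bp away. Cox8a had a peak of 1045 bp, whereas the nearest to Cox8b, of heart and skeletal muscle, was at 2713 bp and the nearest to Cox8c, of testis, at 6139 bp. In each of these pairs the common form alone had a peak at its start. The same held for Ndufa4, with a peak of 1002 bp, against Ndufa4l2, which low oxygen is known to induce and whose nearest peak was 1077 bp away. Ndufa4l2 therefore lay just outside the distance of 1 kb.

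The other 3 pairs did not follow this pattern. Cox7a1, of heart and skeletal muscle, had its start at the centre of a peak of 517 bp that reached 258 bp to either side, while its counterpart Cox7a2 had one of 799 bp. Cox6b2, of testis, counted as having a peak through one of 468 bp beginning 804 bp downstream of its start. That peak did not cover the start and lay just inside the distance, while Cox6b1 had one of 546 bp over its start. Cox7b and Cox7b2 both had none. The nearest peak to Cox7b was 3473 bp away at the start of Magt1, and the nearest to Cox7b2, of testis, was 355172 bp away. Of the tissue-restricted forms, 6 of 8 thus had no peak within 1 kb, and 7 of 8 had no start inside a peak. Within 5 kb of a start, 5 of the 8 had a peak (62.5%), against 53.7% of all coding genes, so at that distance their share was not lower.

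**Figure D3:**
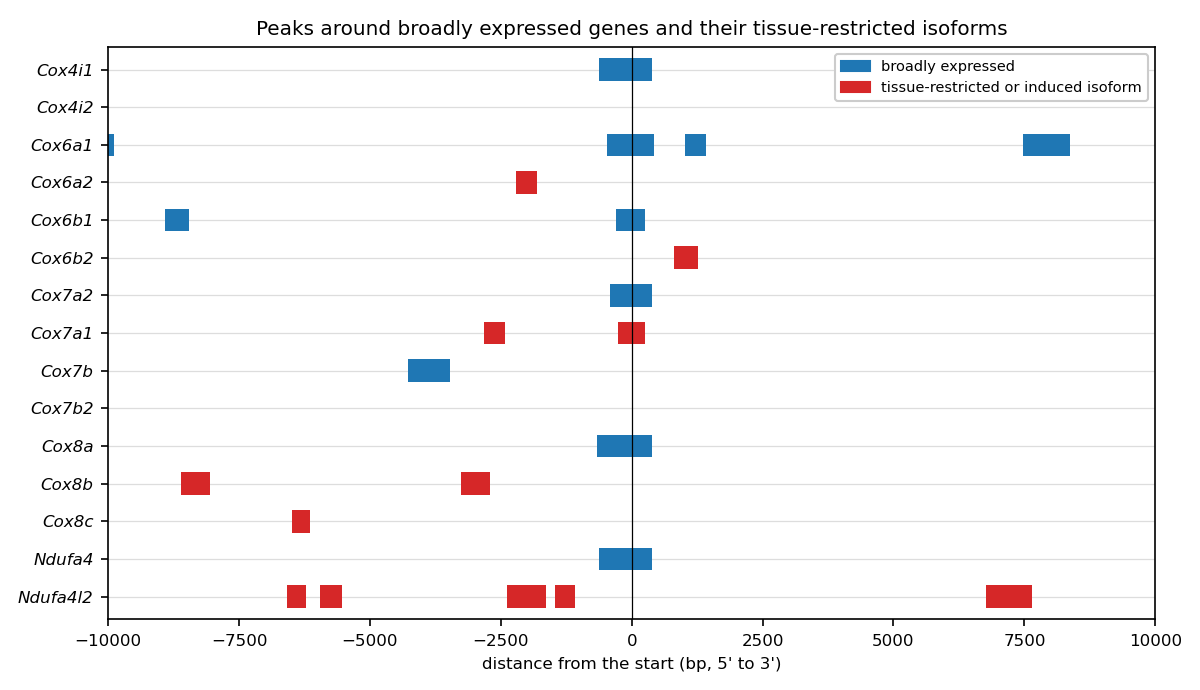
Peaks (bars) within 10 kb of the starts of the common genes (blue) and the tissue-restricted or induced forms (red), by distance in bp from the start at 0. Blue bars cross the line at 6 of 7 common genes and a red bar crosses it at Cox7a1 alone.

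To check the cells against their label, markers of other tissues were read the same way. A peak lay within 1 kb of a start at 7 of 7 progenitor T-cell genes found in the annotation, such as Bcl11b, Tcf7, Gata3 and Notch1. No peak was listed at any of the 8 muscle genes, the 6 testis germ cell genes, the 3 lung epithelium genes, the 4 B-cell genes or the 4 myeloid genes. Unlike Cox7a1, muscle genes such as Ckm, Myod1 and Myog thus had no peak within 1 kb. Over all nuclear protein-coding genes 47.0% had one. The marker lists also differ in base composition, treated below. The start was CpG-rich at 4 of the 7 T-cell genes, 2 of the 6 testis germ cell genes and 1 of the 4 myeloid genes. It was so at none of the muscle, lung or B-cell genes. Whether composition bears on the contrast was not tested.

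The 15 entries without a peak differed in how far the nearest peak was, measured from the closest of all annotated starts of the gene. In 6 cases it is a tissue-restricted form, as described above. The second Ndufb8 entry had its nearest peak 2117 bp away, and this is the peak of 706 bp over the start of the other Ndufb8 entry. For Ndufs8 the nearest was 5323 bp away at the start of Tcirg1, and for Ndufa6 it was 7161 bp away. For Ndufs7 it was 7436 bp away at the starts of Dazap1 and Gamt, or 11630 bp from the first-numbered start. These genes therefore had accessible chromatin in their neighbourhood but none listed at the start. Ndufb5 stood in a longer stretch without any peak, of 1090 kb, which also holds the starts of Mrpl47, Usp13 and Pex5l, and its nearest peak was 27676 bp away at Actl6a. Atp5f1 stood in a stretch of 548 kb without a peak, with 12 coding starts in it, of which 1 is CpG-rich (a GC content of 50% or more and a CpG ratio of 0.6 or more), and its nearest peak was 54922 bp away. In the stretch around Ndufb5, 3 of the 4 coding starts are CpG-rich, a class in which 76.3% of all coding genes had a peak. Whether the list used here is complete in these stretches is not known, so no peak at Ndufb5 or Atp5f1 says only that none is listed. Atp5g2 stood in one of 55.2 kb in which it was the only coding start, and Atp5l-ps1 in one of 477 kb.

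Unsequenced bases and near-complete copies were looked for at these starts. None of the 15 had an unsequenced base in the 500 bp to either side of the first-numbered start. For none of the 94 entries did a second place in the genome match the 601 bp around that start. A match was counted at 80% or more of their length with an identity of 95% or more. Shorter repeats cannot register in this search, so whether they lie at these starts was not tested. Whether read depth or the requirement of a peak in 3 of the 6 libraries bears on the missing peaks was not tested.

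Base composition was compared next, since starts rich in CG dinucleotides are accessible in many cell types. A start was called CpG-rich when the 500 bp to either side had a GC content of 50% or more and a CpG ratio, observed over expected, of 0.6 or more. This held for 71 of 94 OXPHOS entries (75.5%), against 44.8% of all nuclear protein-coding genes. Among the 71, a peak lay within 1 kb for 68 (95.8%, Wilson interval 88.3 to 98.6%), and among all CpG-rich coding genes for 7643 of 10022 (76.3%). Among the 23 CpG-poor OXPHOS entries it was 11 (47.8%, interval 29.2 to 67.0%), against 2859 of 12345 (23.2%) of all CpG-poor coding genes. The share in OXPHOS genes thus stood above that of all coding genes within either class of base composition.

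The CpG-rich entries without a peak were Atp5g2, Ndufa6 and Ndufb5. All 8 tissue-restricted forms were CpG-poor, with ratios from 0.175 at Ndufa4l2 to 0.467 at Cox7b2, and of the common forms 5 of 7 were CpG-rich. Ndufs7 counted as CpG-poor through its GC content of 48.8% alone, as its CpG ratio was 0.960, and Ndufs8 lay just below the threshold with a ratio of 0.555. Among the CpG-poor genes with a peak, Atp5j2, subunit f of the membrane part, had the lowest values, a GC content of 42.7% and a ratio of 0.220, and its peak of 783 bp lay downstream of the first-numbered start.

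**Figure D4:**
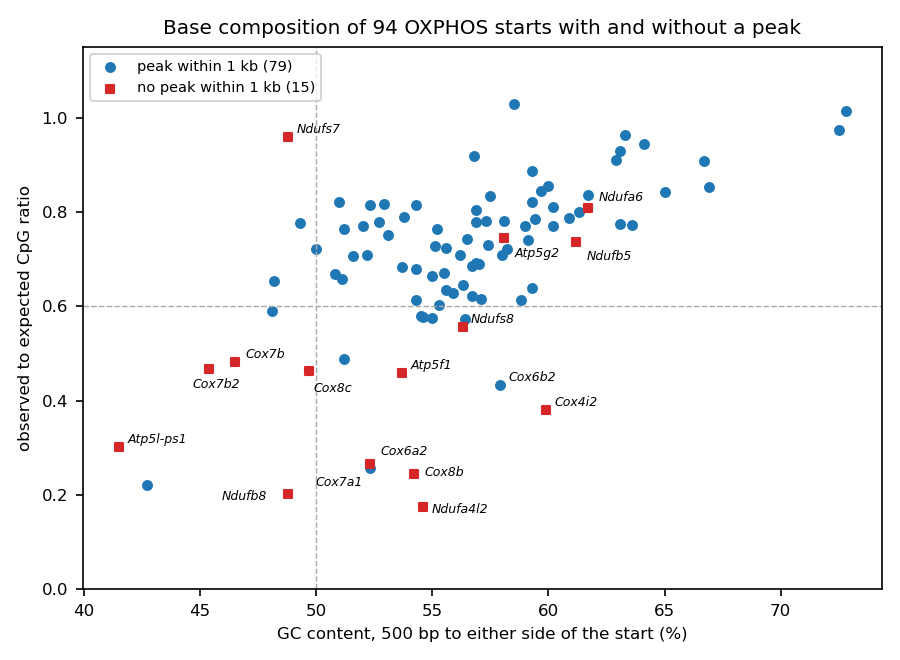
Each point is an entry, by the GC content (%) and the observed to expected CpG ratio of the 500 bp to either side of its start, with dashed lines at the thresholds of 50% and 0.6. Blue circles have a peak within 1 kb and red squares do not; 3 red squares lie in the upper right field and 12 outside it.

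Many OXPHOS genes share their promoter with another gene. A divergent partner, a coding start on the opposite strand at most 1 kb upstream, was present for 28 of 94 entries (29.8%), against 8.77% of all coding genes and 31.2% of the mitochondrial ribosomal protein genes. All 28 had a peak, with the start inside it. Of the 66 entries without a partner 51 had one (77.3%), while over all coding genes with a divergent partner it was 1652 of 1961 (84.2%). By complex, a partner was present for 13 of 41 in complex I, 4 of 6 in complex II, 4 of 8 in complex III, 2 of 20 in complex IV and 4 of 18 in complex V.

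Several starts were only a few bases apart. Ndufs1 lay 3 bp from Eef1b2, a translation elongation factor gene, and Ndufb11 lay 3 bp from Rbm10. The distance was 29 bp between Ndufa7 and Rps28, a ribosomal protein gene, 29 bp between Sdha and Ccdc127, and 52 bp between Sdhd and Timm8b, a mitochondrial import gene. In complex IV the pair was Cox4i1 and Cox4nb at 178 bp and Ndufa4 and Phf14 at 363 bp. In each of these cases both starts lay in the same peak, so the list cannot assign it to one gene or the other.

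Genes that overlap head to head were not counted as divergent, and there were 3 such cases. Atp5j overlaps Gabpa, the gene of an ETS factor, with starts 501 bp apart, and shared with it a peak of 1344 bp. Ndufb5 overlaps Mrpl47 with starts 157 bp apart, and Atp5f1 overlaps Wdr77 with starts 730 bp apart, and neither pair had a peak. In total 32 of the 79 peaks at OXPHOS genes (40.5%) had another coding start within 1 kb, against 22.3% over all coding genes with a peak. The median width of such peaks was 1005 bp, against 830 bp for the others. Over all coding genes these medians were 1010 and 896 bp.

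The promoter peaks of OXPHOS genes had a median width of 887 bp (95% interval 826 to 935 bp from order statistics, n = 79 genes, quartiles 787.5 and 1028 bp). The median was 926 bp over all coding genes with a peak, 968 bp over those with a CpG-rich start, 945.5 bp for the cytosolic and 851.5 bp for the mitochondrial ribosomal protein genes. By complex it was 890.5 bp in complex I, 980 bp in II, 1029 bp in III, 807 bp in IV and 877 bp in V. The peaks were thus of the common width for promoters, with no complex standing apart from the quartiles of all coding genes, 746 and 1135 bp. Their median reach was 409 bp before the start and 448 bp after it (n = 77 with that start inside), against 402 and 485 bp over all coding genes.

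The widest peaks were those of Ndufa11 (1415 bp), Atp5d (1382 bp), Ndufb11 (1355 bp), Atp5j (1344 bp) and Ndufv3 (1273 bp), and each had the start of another coding gene within 1 kb. At Ndufa11, a membrane subunit of complex I, the peak reached 1156 bp upstream, towards Vmac, and 258 bp downstream. At Atp5d, the δ subunit of the central stalk, it reached 263 bp upstream and 1118 bp downstream. The narrowest were those of Cox6b2 (468 bp), Cox7a1 (517 bp), Cox6b1 (546 bp), Ndufa7 (611 bp) and Ndufs6 (617 bp). Both tissue-restricted forms with a peak are among these, but the peak at Cox6b2 lay downstream of its start and did not cover it.

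The mean number of peaks near the starts was close to that of CpG-rich genes. Within 10 kb the median was 1 peak per entry (range 0 to 5), and 53 of 94 had exactly 1 (56.4%), against 31.3% of all coding genes and 44.6% of the CpG-rich ones. No peak within 10 kb was listed for 5 of 94 (5.32%), against 40.6% of all coding genes and 17.0% of the CpG-rich ones. Exactly 1 peak was thus more frequent, and no peak less frequent, than in either set. The mean was 1.49 ± 0.925 (SD over 94 entries), against 1.07 ± 1.23 over all coding genes and 1.47 ± 1.20 over the CpG-rich ones. The 137 peaks within 10 kb comprised 81 promoter peaks of OXPHOS genes, 31 at the starts of other genes and 25 that lay more than 1 kb from every annotated start. The last group was narrower, with a median of 451 bp against 883 bp for the OXPHOS promoter peaks.

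The most peaks within 10 kb were found at Atp5h and Ndufa4l2 (5 each), Atp5b and Cox6a1 (4 each), and Atp5k, Ndufaf3, Ndufv1, Ndufv3 and Sdha (3 each). Ndufa4l2, with none within 1 kb, had 4 of the 25 peaks far from every start, at 1077, 1630, 5533 and 6225 bp from its own start and from 351 to 745 bp wide. The widest of the 25, of 1360 bp, lay 3091 bp from a start of Atp5h, subunit d of the outer stalk. Other tissue-restricted forms with such peaks were Cox8b, at 2713 and 8046 bp, Cox7a1 at 2412 bp, Cox6a2 at 1814 bp and Cox8c at 6139 bp. So 9 of the 25 lay near tissue-restricted forms, 8 of them within 10 kb of a form without a promoter peak. Of these, 4 came from Ndufa4l2 alone. How often such peaks lie near other coding genes was not counted, so the count does not show an excess at these forms.

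The promoter sequences were searched for short words of known factors, from 250 bp before to 50 bp after the first-numbered start, on both strands. The words were GCGCANGCG for NRF1, CCGGAAG for ETS factors and GABPA, AANATGGC for YY1, GGGCGG for SP factors, CCAAT for NFY, AAGGTCA for ERR, TATAAA for a TATA box, TAAAAATA for MEF2 and TGGGAA for RBPJ. A match is a description of letters and not a bound site. The YY1 word was present in 20 of 94 OXPHOS promoters (21.3%), against 6.65% of all coding promoters and 8.76% of CpG-rich ones. The NRF1 word was in 18 (19.1%), against 8.15% and 16.0%, and the ETS word in 20 (21.3%), against 11.0% and 19.1%. The ERR word was in 9 (9.57%), against 3.90% and 2.34%. The shares of the YY1 and ERR words were thus above those in either set, while those of the NRF1 and ETS words were close to CpG-rich promoters. The OXPHOS set, however, mixes CpG-rich and CpG-poor starts. Over all CpG-poor coding promoters the NRF1 word was in 1.78% and the ETS word in 4.37%. The shares in CpG-rich OXPHOS promoters alone were not counted. Mitochondrial ribosomal protein genes held the YY1 word in 24.7%, the NRF1 word in 16.9%, the ETS word in 36.4% and the ERR word in 5.19%. Cytosolic ribosomal protein genes held them in 13.1%, 9.52%, 32.1% and 7.14%, in the same order. The share of the YY1 word in mitochondrial ribosomal protein genes was thus no lower than in OXPHOS genes, and that of the ETS word was higher in both ribosomal sets, with no test of these differences.

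At least 1 of the words of NRF1, ETS factors and YY1 was present in 50 of 94 (53.2%), against 22.5% of all coding and 37.1% of CpG-rich promoters. Atp5h held all 3 of them. The SP word was in 45 (47.9%), against 44.7% and 74.0%, so it was less frequent than in CpG-rich promoters. The NFY word was in 36 (38.3%), against 37.7% and 37.0%. The TATA word was in 9 (9.57%), against 13.4% and 5.40%, and the RBPJ word in 21 (22.3%), against 23.9% and 19.7%, with RBPJ being the factor that the study followed. YY1 words lay after the start in 13 of 21 matches, at a median of 26 bp after it, whereas over all coding promoters 41.7% of matches did.

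By complex the sets are small and no difference between them was tested. The YY1 word was in 12 of 41 promoters of complex I and 0 of 8 of complex III, but from 500 bp before to 100 bp after the start it was in 15 of 41 (36.6%) and 3 of 8 (37.5%), so the contrast was absent in the longer window. The NRF1 word was in 6 of 18 of complex V and 1 of 20 of complex IV, at Cox6a1, and in 8 and 3 in the longer window. The SP word was in 6 of 6 of complex II and 1 of 8 of complex III, and in 6 and 2 in the longer window. In the 8 tissue-restricted forms the NRF1 and ETS words had 0 matches and the MEF2 word, of a muscle factor, had 1, which is capitalised in the Cox6a2 sequence above. Over all CpG-poor coding promoters, the class of these 8, the NRF1, ETS and MEF2 words were in 1.78, 4.37 and 3.51%. With so few promoters the counts do not set the forms apart from that class. In the longer window the words were in 0, 1 and 2 of the 8. Ndufb5 and Ndufs8, without a peak, held the YY1 word, and Ndufs8 also the ETS word, as the capitals in their sequences show.

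**Figure D5:**
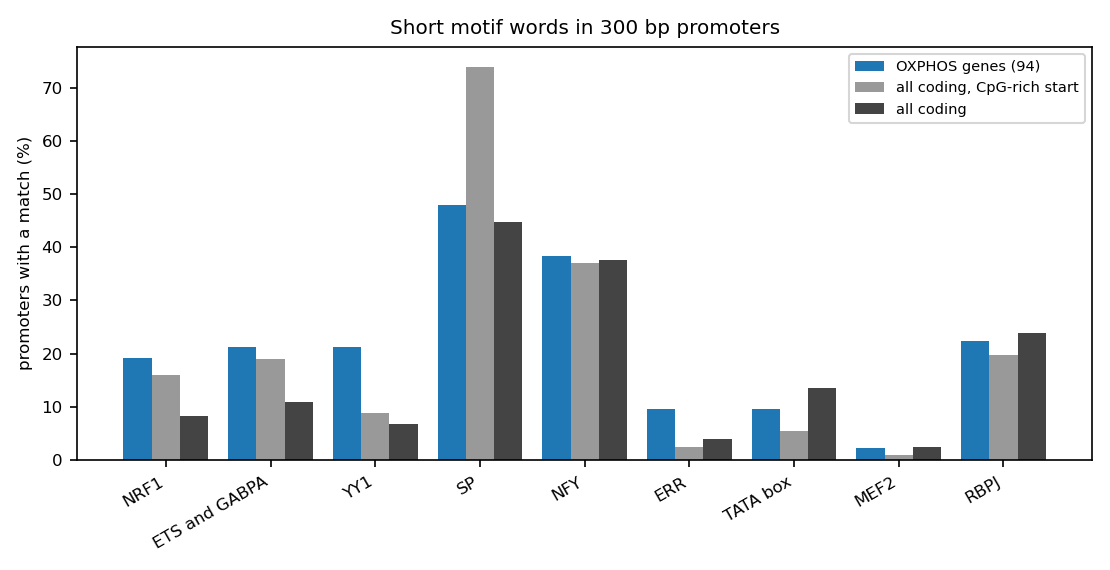
Bars give the percentage of promoters (300 bp) with at least 1 match to each word, for the 94 OXPHOS entries (blue), all coding genes with a CpG-rich start (light grey) and all coding genes (dark grey). The blue YY1 bar stands at 21.3% beside 8.76 and 6.65%, and the blue SP bar at 47.9% beside 74.0 and 44.7%.

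Genes of the same pathway that the naming rule leaves out were read from a list of partners and assembly factors. A peak lay within 1 kb of a start for 22 of the 26 found in the annotation (84.6%), close to the share of the OXPHOS genes themselves. The 4 without were Cycs, the somatic cytochrome c, with its nearest peak at 5079 bp, its testis form Cyct at 9333 bp, and the complex IV assembly genes Surf1 at 2700 bp and Sco2 at 14624 bp. Of 15 genes of regulators of mitochondrial biogenesis and transcription 12 had a peak, among them Nrf1, Gabpa, Yy1, Esrra and Tfam. The 3 without were Gabpb2 at 3689 bp, Sp1 at 5839 bp and Ppargc1a, the inducible coactivator of energy metabolism, at 497275 bp. The start was CpG-rich at 13 of these 15 genes, a class in which 76.3% of all coding genes had a peak. The Wilson interval of the share among the regulators was 54.8 to 93.0%, which covers counting error only. The 15 include the CpG-poor Ppargc1a and Polrmt, so the 2 shares are not of the same class. Whether the regulators differ from CpG-rich genes was not tested.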

How the data were processed

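A commercial ATAC-Seq kit was used for the 6 libraries. As the study's methods and the submitters' processing notes describe, reads were trimmed with trimGalore, aligned to mm9 with HISAT2 2.2.1 keeping 1 alignment per read, and deduplicated with Picard. Peaks were called with MACS2 without an input, combined with MSPC, kept when found in 3 of the 6 libraries, and cleared of blacklisted regions, so the list can hold peaks of 1 treatment. In the deposited list the score is 0 for every peak and none has a name. The other deposited values, and all that was used, are the chromosome and the bp at which each peak starts and ends.

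Starts came from GENCODE vM1 on NCBIM37, the same build as mm9, and coordinates are counted from 1. All transcripts of a gene were used for peaks, and the first-numbered coding transcript for sequence. The promoter peak is the widest within 1 kb. No test was run, because no value per library is given. Copies were searched with minimap2 2.31-r1302. Python 3.11.15, numpy 2.4.6, scipy 1.17.1, pysam 0.24.0 and matplotlib 3.10.9 were used, and the steps were tested on simulated peaks and sequences. Members, lists, words and thresholds were chosen with earlier results of these data known. Genes named by rule are those without a peak, the isoform pairs, the Atp5g genes, the 5 widest and 5 narrowest promoter peaks, and the 5 with most peaks within 10 kb, ties kept. Partners and regulators were to be named where they lack a peak. Others were named by role, or after their values were seen. The counts include 1 member that is not reported by name or drawn as a row here.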

Additional observations from a re-analysis of the deposited data

How the results depend on the processing

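No paired analysis was possible because the merged list has no value per library, and no library could be left out. The number of OXPHOS entries with a peak was 78 to 84 of 94 under the other distances, start sets and peak widths, and 79 of 92 without the second Ndufb8 entry and Atp5l-ps1, an alternative chosen after seeing the data. For tissue-restricted forms the count of 2 of 8 was 1 within 500 bp, 1 with the start inside the peak, 1 with peaks of at least 500 bp, and 5 within 5 kb. Over all coding genes the shares under these settings were 45.7, 44.0, 43.8 and 53.7%, in the same order. The median number of peaks rose from 1 to 2 with the gene body extended by 10 kb and to 2 within 20 kb of a start. In promoters from 500 bp before to 100 bp after the start, the ERR word was in 18, the TATA word in 17 and the RBPJ word in 38, as the window is longer. Over the 600 bp, all coding promoters held them in 8.90, 25.8 and 42.6%. CpG-rich starts numbered 61 in the shorter window of 300 bp, and 57 of 66 alternative values stayed within 1.5 times the value reported. Without peak heights, a weak and a strong peak cannot be told apart, and depth could not be weighed.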
